A study of Callithrix jacchus with 39 samples.

Results

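APOA1, APOB, SERPINA1 and LRP2 encode secreted or endocytic proteins of the yolk sac, and A1CF encodes an RNA-binding partner in the editing of APOB mRNA. The RNA of these 5 genes was followed across early embryos and embryonic stem cells (ESCs) of the common marmoset, Callithrix jacchus. They are 5 of the 30811 genes in the count table, matched by gene ID as ENSCJAG00000012644 (APOA1), ENSCJAG00000007533 (APOB), ENSCJAG00000009782 (SERPINA1), ENSCJAG00000005045 (A1CF) and ENSCJAG00000006333 (LRP2). They were chosen by name with their CPM in these same libraries already known, so their values are given as a description with no test. The study addressed the conversion of primed marmoset ESCs to naive-like cells and set those cells beside early embryos, in 39 poly(A)+ RNA libraries that form 13 groups of 3. The embryo series ran from Morula through inner cell mass (ICM) at 5 stages, labelled Early blastocyst, Blastocyst, Expanded, Hatching and Hatched, to epiblast of postimplantation embryos. ESC groups were the primed cells DSY127 and No.40, the primed cells DSY-c2 and N40 whose titles carry Tg, naive DSY-c2 cells titled TgON and naive N40 cells titled TgOFF. Tg is not explained in the labels, and the effects of TgON or TgOFF and of the cell line cannot be told apart. Whether replicates were separate cultures or embryos is also not stated, so the spread and every p-value refer to these libraries and may be technical.

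The yolk sac forms from the primitive endoderm, the layer of the ICM that gives rise to visceral and parietal endoderm. Before the liver works, visceral endoderm makes many of the proteins later found in blood plasma and takes up nutrients from its surroundings. APOA1 is the main protein of high-density lipoprotein, APOB is the scaffold of chylomicrons and very-low-density lipoprotein, and SERPINA1 is alpha-1-antitrypsin, an inhibitor of neutrophil elastase. A1CF is an RNA-binding partner of the enzyme APOBEC1 in the editing of APOB mRNA. LRP2 is megalin, a large endocytic receptor of absorptive epithelia such as visceral endoderm and kidney tubule.

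Libraries held 38.8 to 78.7 M counts in ESCs and 45.3 to 59.0 M in embryos (M, 1e+06). Levels are counts per 1e+06 counts (CPM) on library sizes scaled by TMM, which corrects for differences in RNA composition. A floor of 3 counts corresponded to 0.0381 to 0.0772 CPM in a library, for counting error only. CPM is not divided by transcript length, so levels are compared between groups for 1 gene and not between genes. The epiblast libraries held pluripotency markers at a summed 1222 to 1285 CPM and also fibroblast markers at 1493 to 1704 CPM, with 6 of 6 matched genes above 5 CPM (COL1A2 at 393 ± 53.6 CPM and DCN at 521 ± 29.4 CPM, SD, n = 3). In the 15 ICM libraries the fibroblast markers summed to at most 31.7 CPM. They were not particular to the epiblast, with sums of 929 to 2214 CPM in DSY127 and 1177 to 2120 CPM in No.40. ALB and AFP, the major plasma proteins of liver and yolk sac, had no count in the epiblast and group means of at most 0.0340 CPM elsewhere.

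SERPINA1 was high only in the libraries labelled epiblast. Its level was 2643, 2881 and 2909 CPM in the 3 epiblast libraries, a mean of 2811 ± 146 CPM (SD, n = 3). No count was found in the morula or in the early, blastocyst, expanded and hatching ICM, and the hatched ICM had 0.303, 0.488 and 0 CPM, 40 counts in all. The epiblast stood above each of the 15 ICM libraries without overlap, and its summed counts per total count (without the TMM scaling) were 55538 times those of the ICM (95% counting interval 40785 to 77740). The ICM side rests on 26 and 14 counts of 2 hatched libraries, and the ratio was 147833 without the second of them. In bulk RNA, more cells of a type and more RNA per cell cannot be told apart.

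In ESCs SERPINA1 stayed low. DSY127 had 0.418, 1.02 and 5.93 CPM, the last being the highest of the 18 ESC libraries. No.40 had 0.142, 1.12 and 0 CPM, and primed DSY-c2 had 3.03, 0.387 and 0.206 CPM. Each of these primed groups thus rested largely on 1 library. Naive DSY-c2 cells had 2.86, 3.04 and 1.24 CPM, within the range of the 12 primed libraries but with 1 library just above the primed ones of its own line. N40 cells were near the floor, with 0, 0.0521 and 0.0542 CPM when primed and 0.619, 0 and 0 CPM when naive.

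APOB was also highest in the epiblast. The epiblast had 530.2, 501 and 478 CPM, a mean of 503 ± 26.2 CPM (SD, n = 3). The morula and the early, blastocyst and expanded ICM had at most 0.211 CPM in any library, and the hatching ICM 0, 0.308 and 0.248 CPM. The hatched ICM varied more, with 0.0649, 7.59 and 1.51 CPM. The lowest epiblast library was far above the highest ICM library, and the ratio of summed counts between the groups was 775 (95% counting interval 710 to 847). The second hatched library held 404 of the 513 ICM counts of APOB, and without it the ratio was 3397.

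Unlike SERPINA1, APOB had counts in all 18 ESC libraries, from 1.30 to 61.8 CPM with a median of 23.1 CPM. DSY127 had 23.6, 26.1 and 61.8 CPM, and No.40 had 38.1, 27.3 and 15.8 CPM. Primed DSY-c2 had 24.8, 38.4 and 22.7 CPM, and primed N40 had 10.0, 20.6 and 25.1 CPM. The ranges of the 4 primed groups overlapped each other, and all 4 means lay between the epiblast and the hatched ICM. Naive DSY-c2 cells had 8.70, 33.5 and 3.98 CPM and naive N40 cells 8.38, 1.30 and 1.66 CPM.

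APOA1, unlike APOB and SERPINA1, had counts in all 3 morula libraries. In the morula it was at 0.419, 3.53 and 3.70 CPM, and in the early ICM at 0.267, 1.78 and 0.0405 CPM. The blastocyst ICM had 0, 0.0832 and 6.51 CPM and the expanded ICM 0.0742, 3.91 and 0 CPM, so libraries of 1 stage ran from no count to several CPM. In the hatching ICM every library was higher, at 15.3, 27.9 and 22.7 CPM. The hatched ICM had 2938, 188 and 70.5 CPM, and the epiblast 74.8, 78.3 and 65.3 CPM. The 6 hatching and hatched libraries lay above the 6 early and blastocyst ICM libraries without overlap, a fitted log2 difference of 8.05 ± 1.46 (SE). APOB did not separate these same stages, with 4 of 6 late libraries above all early ones.

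The first hatched ICM library held 88.8% of the APOA1 counts of all ICM libraries. That library had the lowest APOB of its group (0.0649 CPM) but the highest LRP2 (897 CPM). It also differed in other markers: POU5F1 was at 226 CPM against 726 and 1223 CPM in the other libraries of the group, NANOG at 165 against 1553 and 1309 CPM, and the trophectoderm factor GATA2 at 1115 against 99.4 and 115 CPM. Trophectoderm markers summed to 1438 CPM there, mostly from GATA2, against 232 and 574 CPM. KRT7, another trophectoderm marker, was highest in a different library of the group, at 442 CPM. The part of all these markers in the APOA1 level was not tested. Because of that library, the comparison of epiblast with ICM changed direction with the measure for APOA1. The ratio of mean CPM was 0.333 with all 15 ICM libraries and 3.03 without it, an alternative chosen after seeing the data, whereas the fitted log2 difference was 4.68 ± 1.60 (SE). Without that library the late minus early ICM log2 difference was 7.27.

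ESC levels of APOA1 ran from 0.561 to 82.5 CPM over the 18 libraries. DSY127 had 15.6, 18.5 and 82.5 CPM, and No.40 had 27.6, 7.65 and 2.29 CPM. Primed DSY-c2 had 11.7, 25.9 and 9.10 CPM, and primed N40 had 4.69, 5.29 and 3.997 CPM. One DSY127 library was thus as high as the epiblast, while the N40 group was the tightest. Naive cells had 4.46, 17.6 and 10.8 CPM in DSY-c2 and 2.22, 0.561 and 0.718 CPM in N40.

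A1CF was found in the epiblast at a low level, with 1.13, 1.06 and 5.40 CPM. The mean of 2.53 ± 2.49 CPM (SD, n = 3) rested mostly on the third library. Outside the epiblast, 22 counts in 1 blastocyst ICM library (0.444 CPM) and 22 counts in the third DSY127 library (0.366 CPM) were the only values above 4 counts. None of the early, expanded, hatching and hatched ICM libraries and none of the 6 N40 libraries had a count, which allows up to the floor level in each. Epiblast and ICM libraries did not overlap, with a ratio of summed counts of 91.9 (95% counting interval 59.9 to 148). All 22 ICM counts came from 1 blastocyst library and 292 of 407 epiblast counts from the third epiblast library. The ratio was 39.2 without that epiblast library and at least 631-fold without that blastocyst library, taking 3 counts over the ICM as the floor. Among the 5 genes, APOB, SERPINA1 and A1CF had no overlap between epiblast and ICM, in a comparison where 44.8% of all 16929 genes tested were called (edgeR quasi-likelihood, Benjamini-Hochberg adjusted p under 0.05). A call is another measure than a lack of overlap, and the share of all genes without overlap is not given here. Since the 5 genes were also chosen with this contrast known, nothing is read from the number without overlap.

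LRP2 had another pattern and was already present in every morula library. The morula had 411, 707 and 828 CPM, and the early ICM 1054, 769 and 1139 CPM. The blastocyst ICM had 1379, 291 and 280.4 CPM, the expanded ICM 541, 226 and 794 CPM, and the hatching ICM 454, 352 and 218 CPM. The hatched ICM had 897, 353 and 529 CPM, and the epiblast 250.2, 257 and 263 CPM. Each stage up to the hatched ICM overlapped the one before it. The epiblast lay below all 3 hatched libraries but inside the range of the 15 ICM libraries, and the fitted log2 difference of epiblast minus ICM was -1.03 ± 0.46 (SE).

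**Figure D1:**
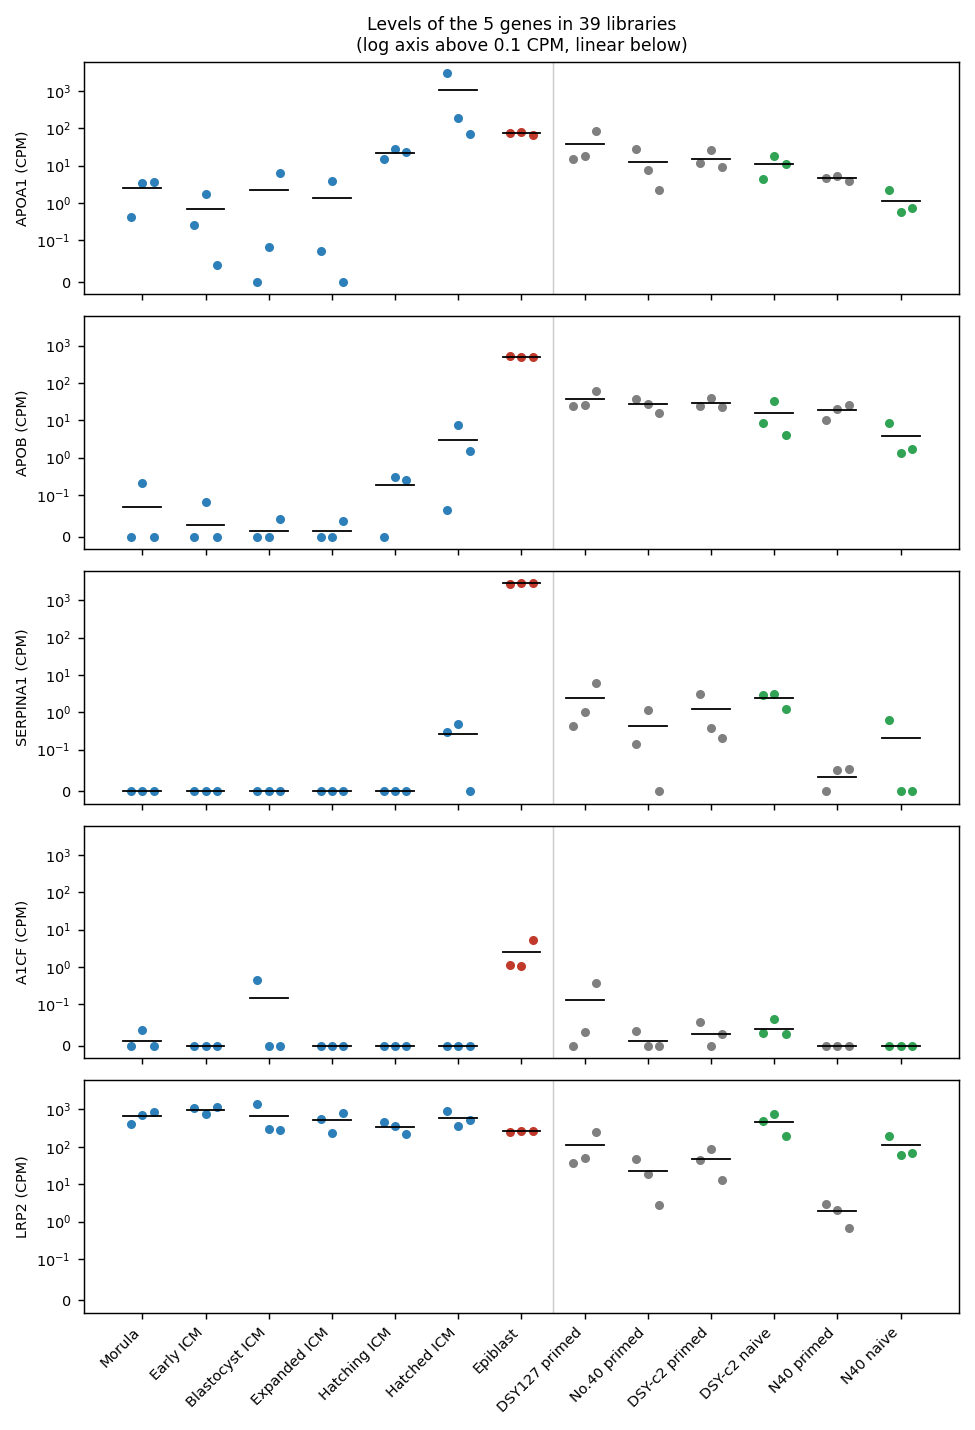
CPM of APOA1, APOB, SERPINA1, A1CF and LRP2 in the 39 libraries, with 1 panel per gene and 1 column per group. Points are libraries (blue, morula and ICM; red, epiblast; grey, primed ESCs; green, naive ESCs) and bars are group means; the axis is logarithmic above 0.1 CPM and linear below. SERPINA1 reaches 2643 to 2909 CPM in the epiblast alone, while LRP2 is at 218 to 1379 CPM from the morula through the ICM stages.

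In the order of group means, APOB, SERPINA1 and A1CF were highest in the epiblast, with no overlap with the group in second place. For APOB that group was DSY127, followed by primed DSY-c2, No.40 and primed N40, neighbours that did not differ beyond their spread. For SERPINA1 the second group was DSY127 at 2.46 ± 3.03 CPM, next to naive DSY-c2 at 2.38 ± 0.99 CPM. APOA1 was highest in the hatched ICM at 1065 ± 1623 CPM, whose range overlapped that of the epiblast at 72.8 ± 6.71 CPM. LRP2 was highest in the early ICM at 987 ± 194 CPM and lowest in primed N40 at 1.90 ± 1.15 CPM, and the library ranges of all 12 neighbouring pairs in its order overlapped.

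Naive cells had more LRP2 than primed cells of the same line. In DSY-c2, primed libraries were at 44.5, 87.7 and 12.8 CPM and naive libraries at 485, 732 and 189 CPM. In N40, primed libraries were at 2.97, 2.06 and 0.678 CPM and naive libraries at 199, 59.2 and 67.0 CPM. No naive library overlapped a primed one in either line, and mean CPM was 9.69 times higher in DSY-c2 and 57.0 times higher in N40. The fitted log2 differences were 3.46 ± 1.13 and 5.81 ± 1.13 (SE), or 2.70 to 4.08 and 5.21 to 6.24 leaving out 1 library. Of the naive DSY-c2 libraries, 2 of 3 lay within the range of the ICM libraries, while the other one and all 3 naive N40 libraries lay below the lowest ICM library (218 CPM).

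APOA1 and APOB went the other way in N40. Both were lower in all 3 naive N40 libraries than in all 3 primed ones, with mean CPM 3.99 times higher in primed cells for APOA1 and 4.91 times higher for APOB. The fitted log2 differences were -2.22 ± 0.92 and -2.70 ± 0.83 (SE). In DSY-c2 the naive and primed ranges overlapped for both genes, with differences of -0.56 ± 0.92 for APOA1 and -1.40 ± 0.83 for APOB. Leaving out 1 library moved the DSY-c2 difference of APOA1 to between -1.01 (without naive library 2) and -0.02 (without naive library 1), and that of APOB to between -2.24 (without naive library 2) and -0.70 (without naive library 3). In N40 the ranges were -2.80 to -1.84 for APOA1 and -3.53 to -2.20 for APOB. For SERPINA1 the ranges overlapped in both lines, and for A1CF counts were too few to compare. Thus 1 of the 5 genes in DSY-c2 and 3 of the 5 in N40 had no overlap. Of all 17957 genes tested, 58.8% were called in DSY-c2 and 61% in N40 (edgeR quasi-likelihood, Benjamini-Hochberg adjusted p under 0.05). A call is another measure than a lack of overlap, and the share of all genes without overlap is not given here. Nothing is therefore read from the members' counts.

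The third naive DSY-c2 library carries other lane labels (lanes 1 and 2) than the other libraries of DSY-c2 (lanes 6 and 7). Within lanes 6 and 7, without that library, the log2 difference was 4.01 for LRP2, -0.66 for APOA1 and -0.70 for APOB. All N40 libraries carry lanes 1 and 2. Pooled and within-lane values had the same sign for all 3 genes, and the APOB value moved the most.

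**Figure D2:**
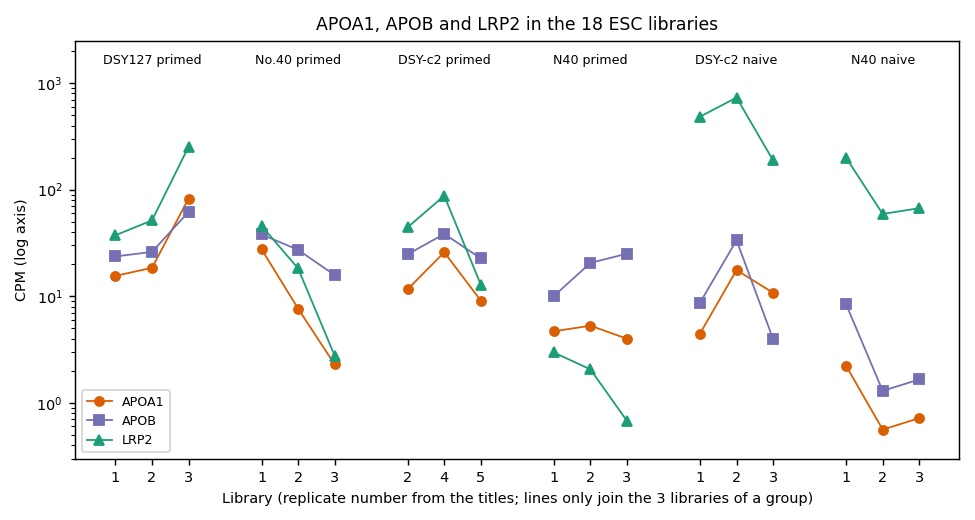
CPM of APOA1 (circles), APOB (squares) and LRP2 (triangles) in each of the 18 ESC libraries on a logarithmic axis, with lines that only join the 3 libraries of a group. In 5 of 6 groups 1 library is highest for all 3 genes, such as the third DSY127 library with 82.5, 61.8 and 252 CPM.

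Within ESC groups the same library tended to lead for several of the genes. In 5 of 6 ESC groups, 1 library was the highest for APOA1, APOB and LRP2 together, and this was so in 0 of 7 embryo groups. In DSY127 it was the third library, which was 4.47 times the next one for APOA1, 2.37 times for APOB and 4.89 times for LRP2, and was also highest for SERPINA1 and A1CF. In No.40 it was the first library, which also carries other lane labels (lanes 6 and 7) than the rest of its group. The other leading libraries were number 4 of primed DSY-c2, number 2 of naive DSY-c2 and number 1 of naive N40. SERPINA1 was highest in the leading library of both naive groups. In No.40 and primed DSY-c2 it was highest in another library, number 2 of each, at 1.12 and 3.03 CPM. A1CF had too few counts in these groups to rank. The leading-library pattern was noticed in these data and is a description.

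Regulators of extraembryonic endoderm were highest in the same library in each of the 3 primed groups that had such a leading library. The 11 matched regulators summed to 288 CPM in the leading DSY127 library against 178 and 122 CPM, to 468 CPM in the leading No.40 library against 106 and 70.6 CPM, and to 573 CPM in the leading primed DSY-c2 library against 119 and 116 CPM. GATA6, a transcription factor of primitive endoderm, was at 157 CPM in that DSY-c2 library against 11.8 and 7.76 CPM. PDGFRA, a receptor of the same lineage, was at 251 against 17.5 and 16.2 CPM. FOXA2, a transcription factor of endoderm, was at 18.3 against 6.31 and 1.38 CPM. In naive DSY-c2 the leading library was not the highest for the regulators, with 300.0 CPM against 281 and 304 CPM. The part of such cells in the levels of APOA1, APOB and LRP2 was not tested.

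Over the 12 primed libraries, log2 CPM of APOA1 had a Pearson's r of 0.91 with LRP2, 0.84 with APOB and 0.75 with SERPINA1. With the naive libraries added, over all 18 ESC libraries, these were 0.26, 0.83 and 0.67, and APOB with LRP2 had an r of -0.10. Over the 18 morula and ICM libraries the r of APOA1 with LRP2 was -0.32 and with APOB 0.61. Over all 39 libraries APOB and SERPINA1 had an r of 0.75 and APOB and LRP2 an r of -0.52. These correlations describe libraries that share groups, lanes and depth, and those with SERPINA1 rest on few counts outside the epiblast.

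The genes around these 5 were taken from 5 lists of 95 genes, of which 69 matched an ID in the table. The lists covered lipoprotein assembly, plasma proteins, partners of A1CF and APOB mRNA editing, megalin endocytosis with other lipoprotein receptors, and endoderm regulators. The unmatched genes include APOA2, APOA4, APOE, TTR and SOX17, which were not analysed here. The 5 described genes were left out of the counts below.

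Several plasma protein genes were higher in the epiblast than in the ICM, as SERPINA1 and APOB were. Of 21 tested genes of this list, 7 passed the low-count filter only through the epiblast libraries, where they are high, so that nothing is read from their calls. Of the 14 that pass without the epiblast libraries, a restriction chosen after seeing the data, 10 rose and 0 fell in epiblast minus ICM, against 21.6% and 20% of all genes that pass in the same way. Their median log2 difference was 4.07 against 0.02. TF, the iron carrier transferrin, was at 5932 ± 202 CPM in the epiblast and 27.8 ± 28.6 CPM in the ICM (SD, n = 3 and 15). VTN, the adhesive protein vitronectin, was at 1035 ± 42.6 CPM against 11.1 ± 16.4 CPM. The next 3 genes are among the 7 that passed through the epiblast alone. They are given as levels only, and nothing is read from them. SERPINA6, the cortisol-binding globulin, was at 81.6 ± 5.68 CPM with no count in 15 ICM libraries. FGA, a fibrinogen chain, was at 41.6 ± 9.91 CPM, also with no count in the ICM libraries. PLG, plasminogen, was at 84.3 ± 8.50 CPM with 4 counts in all ICM libraries.

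Some other markers moved with the same contrast. Fibroblast markers summed to 1493 to 1704 CPM in the epiblast against at most 31.7 CPM in any ICM library. Their sums were also high in the primed cells DSY127 (929 to 2214 CPM) and No.40 (1177 to 2120 CPM). Hepatocyte markers summed to 56.3 to 81.1 CPM against 0.124 to 26.4 CPM, mostly from CPS1 (63.5 ± 13.2 CPM), with G6PC1 at 0. Of the 6 matched hepatocyte markers, only CPS1 had an epiblast mean of at least 5 CPM. CYP3A4 went the other way, at 0.339 ± 0.555 CPM in the epiblast. Its lowest mean of an ICM stage was 7.81 ± 9.85 CPM, in the early ICM. The highest ICM sum, 26.4 CPM, came from CYP3A4 alone. Blood markers summed to 22.5 to 37.9 CPM against at most 2.44 CPM, mostly from SPI1 (21.2 ± 6.35 CPM). The part of these cell types in the levels of SERPINA1, APOB, A1CF and the plasma protein genes was not tested.

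**Figure D3:**
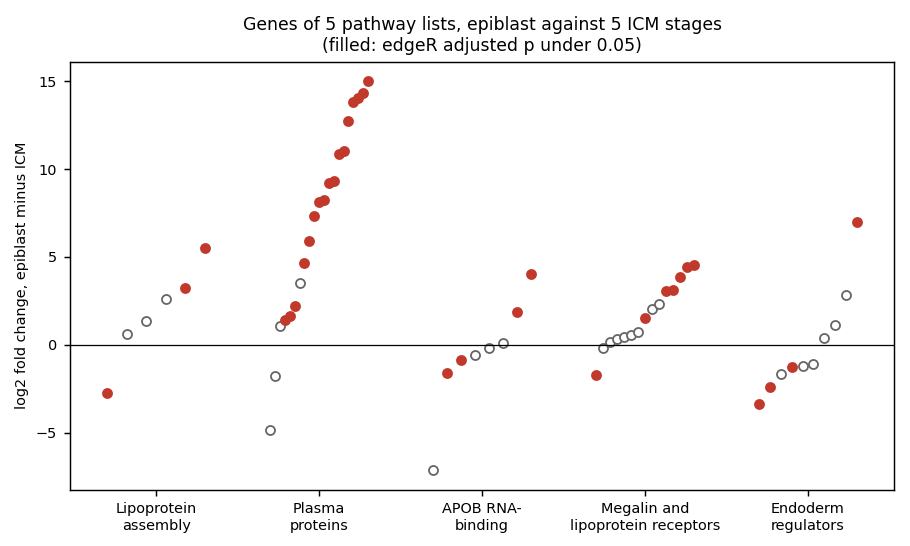
Log2 fold changes of the tested genes of 5 lists between the epiblast and the mean of 5 ICM stages, with APOA1, APOB, SERPINA1, A1CF and LRP2 left out. Filled points passed an edgeR adjusted p under 0.05; of the 17 filled plasma protein genes above 0, 7 passed the low-count filter only through the epiblast. Fitted values of FGA and SERPINA6, which had no count in the ICM, depend on the prior count.

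Of 6 lipoprotein assembly genes 3 were called and of 8 partners of A1CF and APOB editing 4, shares near the 44.8% of all genes. Among the assembly genes, ABCA1 and PLTP, which move lipid to and between high-density particles, rose by a log2 of 5.49 and 3.25. SAR1B, a GTPase needed for secretion of APOB particles, fell by 2.72. MTTP, which loads lipid onto APOB, was at 55.7 ± 18.1 CPM in the epiblast and 30.6 ± 34.2 CPM in the ICM and did not pass the test. Of the 8 editing partners, 2 rose and 2 fell. RBM47, an RNA-binding cofactor of this editing, was at 255 ± 10.4 CPM in the epiblast and 294 ± 102 CPM in the ICM with no call, and APOBEC1 had no count in the epiblast.

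Of 15 genes of megalin endocytosis and lipoprotein receptors, 6 rose and 1 fell in the epiblast, in all a share near the 44.8% of all genes called. CUBN, cubilin, the co-receptor of LRP2, rose from 4.21 ± 4.41 CPM to 52.5 ± 7.21 CPM, a log2 change of 4.53 ± 0.67 (SE). LRPAP1, the chaperone of LRP2 and its relatives, fell by 1.75 on the log2 scale, from 1425 ± 548 to 416 ± 33.4 CPM. DAB2, the adaptor for LRP2 uptake, was at 703 ± 34.5 CPM in the epiblast and 511 ± 297 CPM in the ICM and did not pass. Of 10 endoderm regulators HHEX rose, and GATA6, NR5A2 and HNF4A fell. The calls of HNF4A and NR5A2 were lost without any 1 of the epiblast libraries, with edgeR adjusted p of up to 0.113 and 0.0727. Over the 5 lists 28 genes rose and 7 fell of 60 tested, against 26.1% and 18.7% of all genes, and 17 of the 28 are the plasma protein genes described above. Of these 17, 7 passed the filter only through the epiblast, so nothing is read from that total. Of the 53 genes that pass the filter without the epiblast, 21 rose and 7 fell, against 21.6% and 20% of all genes that pass in this way. Their median log2 difference was 1.34 against 0.02 over all genes that pass.

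Several plasma protein genes were lower in naive than in primed cells. In DSY-c2, 1 of 15 rose and 8 fell, against 29.6% and 29.3% of all genes called higher and lower. In N40, 2 of 15 rose and 6 fell, against 32.3% and 28.7%. VTN fell from 115 ± 10.0 to 7.68 ± 1.20 CPM in DSY-c2 and from 206 ± 32.0 to 6.93 ± 2.26 CPM in N40. RBP4, the retinol carrier, fell from 7.75 ± 1.46 to 0.291 ± 0.202 CPM and from 13.5 ± 1.45 to 0.619 ± 0.0849 CPM. TF fell from 482 ± 29.8 to 92.0 ± 15.7 CPM and from 738 ± 89.2 to 122 ± 16.4 CPM (SD, n = 3 each). C3, the central complement protein, rose from 40.8 ± 5.74 to 218 ± 70.9 CPM in DSY-c2 and from 22.0 ± 5.08 to 40.7 ± 5.68 CPM in N40. Fibroblast markers were lower in the same comparisons without overlap, at a summed 323 to 410.2 CPM in primed and 73.3 to 200.4 CPM in naive DSY-c2 libraries and at 617 to 861 and 193 to 478 CPM in N40. Their part in the levels of the plasma protein genes was not tested.

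HNF4A, a nuclear receptor that drives many liver and visceral endoderm genes, rose beside LRP2. In DSY-c2 it went from 15.6 ± 15.6 CPM when primed to 146 ± 20.1 CPM when naive, and in N40 from 0.179 ± 0.0634 to 64.5 ± 11.1 CPM. The DSY-c2 call (edgeR adjusted p = 0.0180) was lost without primed library 2 or 5, with adjusted p of up to 0.0696. GATA4, a transcription factor of endoderm, rose by a log2 of 1.27 in DSY-c2 and 2.67 in N40, and the DSY-c2 call was lost in 6 of 12 alternatives, without primed library 2 or 5 or any 1 of the naive libraries and with no filter on low counts. PDGFRA and HHEX fell in DSY-c2, and both calls were lost without primed library 4, the library with the highest APOA1, APOB and LRP2; the PDGFRA call was also lost without any 1 of the naive libraries.

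Among the genes near LRP2 in function, 3 of 15 rose and 6 fell in each line, in all a share near the 58.8% and 61% of all genes called. DAB2 rose by a log2 of 1.11 ± 0.22 (SE) in DSY-c2, and in N40 it was at 210.0 ± 14.9 CPM when primed and 267 ± 71.7 CPM when naive, without passing. CUBN was at 3.17 ± 0.549 CPM when primed and 3.17 ± 1.01 CPM when naive in DSY-c2, and at 1.78 ± 0.560 and 1.46 ± 0.559 CPM in N40, without a call. RBM47 rose by a log2 of 1.47 in DSY-c2 and 0.87 in N40, and SAR1B by 0.91 and 0.82. Over the 5 lists 15 of 56 genes rose and 21 fell in DSY-c2, and 19 rose and 15 fell in N40, in all again near those shares. The median log2 difference was -0.32 and 0.09, against 0.03 and 0.09 over all genes. The naive effect itself differed between DSY-c2 (TgON) and N40 (TgOFF) for 8 of the 56. On the signed log2 scale it was larger in DSY-c2 than in N40 for 6 and smaller for 2, against 6.55% and 8.57% of all genes. The median difference of the 56 was -0.20 against -0.05 over all genes.

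**Figure D4:**
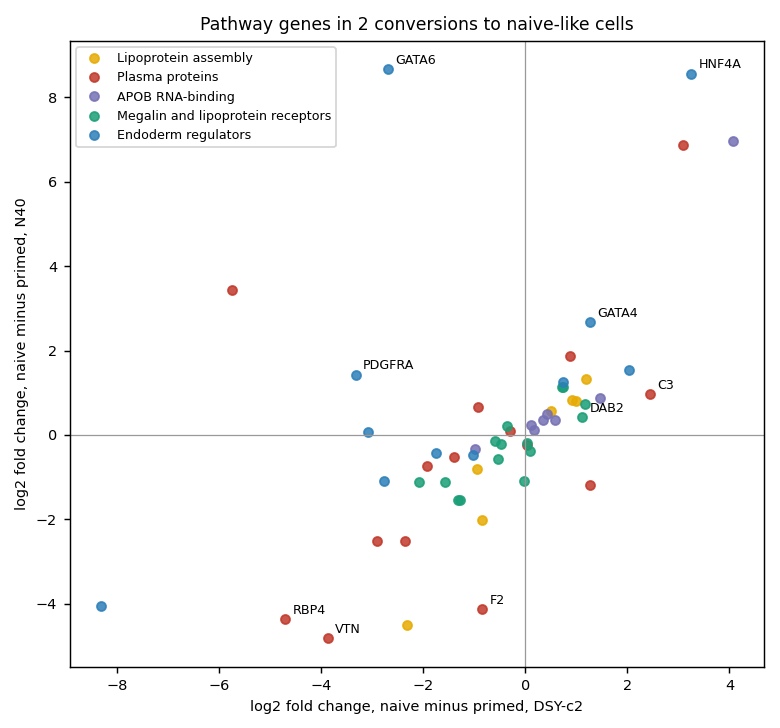
Log2 fold changes from primed to naive cells of the 56 tested genes of 5 lists, with DSY-c2 on the horizontal and N40 on the vertical axis and colours for the lists. HNF4A (3.25 and 8.56) lies at the upper right, VTN (-3.87 and -4.82) and RBP4 (-4.71 and -4.37) at the lower left, and GATA6 (-2.68 and 8.67) apart at the upper left. The GATA6 value of DSY-c2 did not pass the test, and the size of that of N40 rests on 14 counts in the primed libraries.

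Before implantation, in ICM minus morula, 10 of 60 rose and 8 fell, against 8.65% and 12.2% of all genes, and the median was 0.45, or 0.09 with genes at 0 in 1 of the groups set at their floor, against 0.00 over all genes. FGG, a fibrinogen chain, rose from 0.0691 ± 0.0566 to 18.5 ± 18.4 CPM and SERPING1, the C1 inhibitor, from 1.04 ± 1.02 to 149 ± 73.0 CPM (SD, n = 3 and 15). FOXA2 rose from 0.0859 ± 0.0784 to 42.7 ± 53.0 CPM, a call lost in 5 of 24 alternatives, among them without any 1 of the morula libraries (edgeR adjusted p of up to 0.136 over the alternatives). LRP2 itself was at 649 ± 215 and 618 ± 367 CPM in these groups.

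In late minus early ICM, where APOA1 differed without overlap and the other 4 genes overlapped, 2 of 60 listed genes rose and 0 fell with edgeR, against 1.26% and 0.774% of all genes (2.04% in either direction), and the median was 0.66 against 0.06. At an unadjusted p under 0.05 the number was 14, and DESeq2 called 9 higher and 3 lower. The 2 genes were CUBN, at 1.24 ± 1.98 CPM in the early and 5.59 ± 4.98 CPM in the late ICM, and GATA4, at 13.1 ± 10.3 and 33.6 ± 17.6 CPM. Both were near the threshold, with edgeR adjusted p = 0.0448 and 0.0447, and lost their call in 12 and 13 of 19 alternatives, among them without any 1 of the hatched libraries. MTTP was at 15.6 ± 23.7 and 56.5 ± 35.6 CPM without passing, and in the first hatched library, that of the highest APOA1, it was at 113 CPM against 57.8 and 60.7 CPM.

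The genes most like each of the 5 were ranked by Pearson's r of log2 CPM over the 39 libraries among 9989 genes. For SERPINA1 they were SERPINA11 (0.97), SPINK1 (0.96), F5 (0.92), SLA (0.90) and SERPINA6 (0.90). For APOB they were SEMA3D (0.95), HEPH (0.95), NTNG1 (0.94), NPNT (0.94) and ADAMTS9 (0.93). SERPINA1 and APOB thus had no gene in common among their 5. For APOA1 they were GC (0.84), LAMB3 (0.83), CALD1 (0.81), MGAM (0.81) and FOXA2 (0.81), where GC encodes the vitamin D-binding protein of plasma. For LRP2 they were ATP6V0D2 (0.92), ADTRP (0.91), HNF4A (0.90), PCGF5 (0.89) and ABCB10 (0.88). For A1CF, with counts almost only in the epiblast, the first was SLA (0.87), and no weight is put on it. The libraries share groups, lanes and depth. These lists change with the measure. By Spearman's rho 4 of the 5 genes stayed among the first 5 for APOA1, 1 for APOB, 2 for SERPINA1 and 1 for LRP2, and over the 13 group means 1, 2, 4 and 4 stayed.

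GC, first in the list of APOA1, also shared its leading libraries. It was at 714, 239 and 145 CPM in the hatched ICM, where APOA1 was at 2938, 188 and 70.5 CPM. In DSY127 GC was at 19.3, 28.9 and 159 CPM. Its epiblast mean was 1942 CPM, so unlike APOA1 it was highest there.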

How the data were processed

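RNA was extracted with an RNeasy Mini kit and poly(A)+ libraries were made with a TruSeq Stranded mRNA kit, per the labels' protocols. Trim Galore 0.4.0, STAR 2.5.3a and featureCounts 1.5.2 are named in the submitters' processing notes. The genome build used is not given in the sources used here, nor is the strand setting. Raw counts per gene, not normalized, were deposited by the authors in 2 run columns per library, and another 6 columns of 3 libraries outside these samples were not used.

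The 2 runs of a library were summed. Their chi-square per gene was 1.91 to 2.00 (genes with at least 50 counts), and between libraries of a group it was 28.1 or more. Even numbers made up 64.1% of counts from 1 to 49 and 50.7% of those from 500, so read mates may have been counted separately and counting intervals are optimistic. Intervals cover counting error only. Symbols were joined by ID to a reference gene table (12660 IDs, 41.1%).

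ESC libraries (18) and embryo libraries (21) were fitted separately with edgeR 4.0.16 in R 4.3.3 (filterByExpr, TMM, robust quasi-likelihood F test, Benjamini-Hochberg over all genes, called at 0.05). CPM used TMM sizes over all 39 libraries. Log2 differences of the 5 genes came from a linear model of log2 CPM with a prior count of 2 and have no test. Alternatives were the size factors and test (DESeq2 1.42.0), other low-count filters, halved counts, fits of only the groups compared, a replicate block, single runs, another prior count and leaving out each library.

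The 5 genes and the lists were chosen with earlier results of these data known. From each list and comparison, up to 3 called genes per direction with the largest change, and at least 5 CPM on average in whichever group was higher, were open to naming, with a set of genes open whatever their values (such as MTTP, CUBN, DAB2, TF and HNF4A), and not every one is printed. APOA1 values without 1 library, the leading-library pattern and the neighbours on the chromosome were chosen after seeing the data. On simulated data with 100 genes changed at each fold, 69% of 2-fold and 89% of 4-fold changes were recovered in the N40 comparison (17630 genes, 4 false of 162 calls). In epiblast minus ICM it was 4% and 33% (16605 genes, 1 false of 38 calls). Far fewer genes changed in the simulated data than the 61% and 44.8% called in these comparisons of the real data. The recovery rates therefore do not give the sensitivity of the reported calls. Promoter motifs and sequences were not analysed here, and some listed genes are counted but not reported here by name.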

Additional observations from a re-analysis of the deposited data

Results flagged for a closer look

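For 8 of the 56 listed genes the effect of conversion differed between DSY-c2 (TgON) and N40 (TgOFF). The test was the interaction test of edgeR (Benjamini-Hochberg adjusted p under 0.05). That share, 14.3%, was near the 15.1% of all genes called, so nothing is read from it. The line, the labels TgON or TgOFF and most lane labels differ together here, and their effects cannot be told apart. Values are log2 differences, the N40 effect subtracted from that of DSY-c2. The complement gene C3 had a value of 1.49 (edgeR adjusted p = 0.00252), the lipid transfer gene PLTP 1.17, vitronectin (VTN) 0.95, prothrombin (F2) 3.30 and the plasmin inhibitor SERPINF2 -1.19. The APOB editing cofactor RBM47 had 0.60, the lipoprotein receptor LRP1 1.08 and GATA6 -11.35. GATA6 went from 58.8 ± 84.9 to 9.01 ± 6.49 CPM in DSY-c2, with 157 CPM in 1 primed library, and from 0.0599 ± 0.0374 to 24.2 ± 12.3 CPM in N40 (SD, n = 3). The primed N40 libraries held 14 GATA6 counts in all, a level at the floor, so the size of its log2 difference is uncertain. LRP1 was at 394 ± 55.5 and 379 ± 3.61 CPM in DSY-c2 and at 357 ± 93.8 and 158 ± 13.5 CPM in N40. The interaction of PLTP was lost in 8 of 18 alternatives and those of VTN and RBM47 in 4 of 18 each, all by leaving out 1 library except 1 for PLTP (no filter on low counts).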

How the results depend on the processing

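Listed genes called lower in the interaction numbered 2, and 1 with no low-count filter, 4 with 1 CPM in 3 libraries, 5 with DESeq2, 4 with only the groups compared and 1 to 3 leaving out 1 library; those called higher were 6, and 3 to 7. In ICM minus morula, 8 were lower, and 4 with only the groups compared and 5 to 10 leaving out 1 library; 10 were higher, and 6 to 11; all genes called were 3526, and 2249 to 3896. In late minus early ICM, 2 were higher, and 1 with no filter, 9 with DESeq2, 0 with only the groups compared and 0 to 2 leaving out 1 library; 0 were lower, and 3 with DESeq2 and 0 to 1. All genes called there were 345, and 1756 with DESeq2, 4 with only the groups compared and 117 to 586 leaving out 1 library. The cause was not tested. Deviations of same-numbered libraries correlated at -0.32 to -0.08 in N40 (0 of 3 pairs over 0.1) and at -0.31 to 0.35 in embryos (15 of 63 pairs), so the numbers were not taken as pairing; between the blastocyst and hatching ICM all 3 pairs were over 0.1 (0.12 to 0.32). With the replicate block, late minus early ICM had 1 listed gene higher (the call of GATA4 was lost) and 225 genes in all, N40 had 13 higher and 16 lower of the listed genes, and epiblast minus ICM had 28 and 7. The epiblast minus ICM log2 difference of SERPINA1 was 15.82, and 14.92 and 15.005 with run 1 or run 2 alone and 17.57 with a prior count of 0.5, which took A1CF from 5.52 to 7.37. The APOA1 ratio of epiblast to ICM means went from 0.333 to 3.03 without the first hatched library. Other alternatives chosen after seeing the data stand beside their results. Promoter motifs were not run.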

Other observations

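Genes near SERPINA1 on its chromosome, in the order of the RefSeq gene table (assembly calJac240_pri), belong to the same serpin family and had unlike levels. SERPINA6 was at 81.6 ± 5.68 CPM, SERPINA11 at 12.4 ± 2.65 CPM and SERPINA10 at 1.89 ± 0.320 CPM in the epiblast (SD, n = 3), and in the 18 preimplantation libraries they reached at most 0, 0.338 and 0 CPM. SERPINA9 had no count in the epiblast and up to 7.21 CPM in the hatched ICM, and SERPINA12 was at 0.0129 CPM in the epiblast. Any reads that match several of these genes could be split between them by the counting, which was not tested.

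Next to APOA1 in the same table lie APOA5, APOA4 and APOC3. APOC3 had no count in any library, APOA5 reached at most 0.130 CPM, and APOA4 was not analysed here. On the other side SIK3, the nearest gene, was at 43.5 ± 8.67 CPM in the epiblast and at most 9.73 CPM in the hatched ICM.

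CDX1, an intestinal transcription factor, was higher on average in naive than in primed cells, at 132 against 18.9 CPM in DSY-c2 and at 77.3 against 2.01 CPM in N40. It was not particular to naive cells. Over the 5 ICM stages in order its means were 27.8, 148, 107, 262 and 172 CPM. It was at 0.0985 CPM in the morula and 3.09 CPM in the epiblast. It accounted for most of the sum over the 9 matched intestinal markers, which was 113 to 157 CPM in naive DSY-c2 and 70.6 to 86.0 CPM in naive N40 cells. The other 8 markers had means under 5 CPM in both naive groups, and no test was made.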
